A study of Bos taurus with 27 samples.

Results

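The loci described here were abundant in each of 3 groups of bovine embryos at the 8-cell stage, with group medians within 1.5 times of each other. A locus is a set of overlapping assembled transcripts that share one MSTRG number, and its level is the sum of FPKM over those transcripts. FPKM is the number of fragments scaled by transcript length and by library total, so it measures a share of the RNA sequenced and not an amount per embryo. A locus was a member if it had fewer than 20 transcripts, group medians of at least 20 FPKM throughout, and a highest group median of at most 1.5 times the lowest. The rule gave 310 loci out of 116933 in the table, or 0.265%. Out of 1152 loci with fewer than 20 transcripts and all medians at 20 FPKM or more, 26.9% were members, and the remaining 842 are called the other abundant loci. Since the members were chosen on their levels in these same libraries, levels and group medians are given as a description and were not tested.

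The study made SMART-Seq v4 libraries from polyadenylated RNA of embryos cultured in SOF medium at 38.5 C. There were 11 libraries of parthenotes of Bos taurus at the 8-cell stage, 8 libraries of late 8-cell embryos made by in vitro fertilisation (IVF) as first-generation crosses of Bos taurus with Bos indicus, and 8 libraries of 8-cell IVF embryos of the same cross. Breed separates parthenotes from IVF embryos, and the request number separates 8-cell IVF (18062) from the other groups (19058), and in those comparisons breed or request number cannot be told apart from the group. Whether a library held 1 embryo or a pool, and whether replicates were separate cultures, is not stated in the labels. The p-values cover only the spread between libraries as deposited, which may be technical.

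As background, an early cattle embryo lives on RNA and protein stored in the egg until embryonic genome activation, which is centred on the 8-cell stage. Stored RNAs are then degraded while the embryo transcribes its own genes. The level of an RNA through this period depends on storage, decay and new transcription together, so a constant level can be reached in more than one way. A parthenote is an egg activated with no sperm, and all its chromosomes come from the mother. The MSTRG numbers are made by the StringTie assembler, and 0 of 37063 entries of a RefSeq gene table (ARS-UCD2.0) share an identifier with them. The members are therefore given by number, with no gene name, function, position or sequence.

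Depths relative to the median library, read from whole-read steps among low values, ran from 0.682 to 1.38 in parthenotes, from 0.337 to 1.67 in late 8-cell IVF and from 0.694 to 0.905 in 8-cell IVF. Total read numbers are unknown. Late 8-cell IVF replicate 1 stood apart. Where 0 is the 8-cell IVF median and 1 the late median of the other abundant loci that differed at least 2-fold between those stages, it lay at -0.0835, whereas the other 7 late libraries lay between 0.809 and 1.22. The 11 parthenotes lay between -0.0247 and 0.181, and the 8-cell IVF libraries between -0.0531 and 0.0974. Parthenote replicate 4 was low throughout, with a median log2 deviation from its group of -0.39 over the members and -0.52 over the other abundant loci. Some counts that these libraries could move are given without them as well, a setting chosen after the data were seen. Others are given with all libraries only.

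The members spanned a wide range of levels. Their group medians ran from 20.6 to 10736 FPKM in parthenotes, from 20.5 to 13563 FPKM in late 8-cell IVF and from 21.2 to 14361 FPKM in 8-cell IVF, and the middle member lay at 43.2, 42.8 and 44.3 FPKM in those groups. Most sat near the lower limit: 197 had a lowest median of 20 to 50 FPKM, 70 of 50 to 100 FPKM, 41 of 100 to 1000 FPKM and 2 above that. The part of the abundant loci that were members was 27.2%, 28.5% and 23.3% in the first 3 of these classes and 2 of 7 loci in the highest. Members were therefore found at a similar rate in each abundance class.

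**Figure D1:**
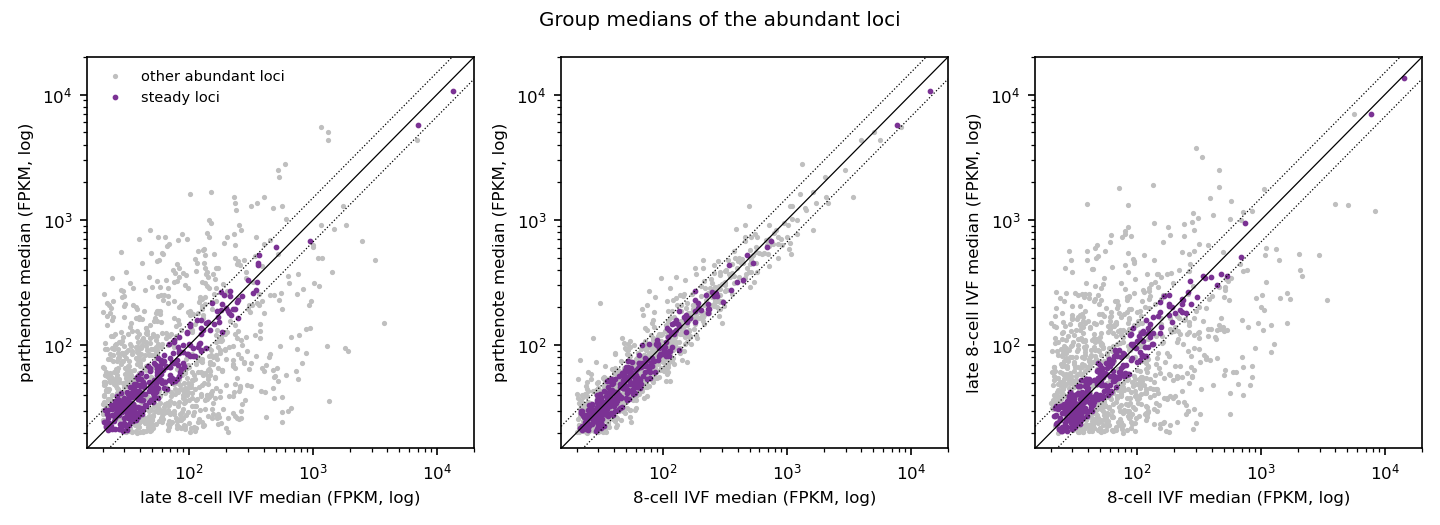
Group medians (FPKM, log axes) of the 1152 abundant loci for each pair of groups, with the 310 steady loci in purple, the other abundant loci in grey, equality as a solid line and 1.5 times either way as dotted lines. Steady loci lie between the dotted lines by their definition, and in the panel of parthenotes against 8-cell IVF most grey loci lie there too.

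The rule asked for closeness over all 3 groups, and the late embryos were the group that most often broke it. Of the 1152 abundant loci, 979 (85.0%) had medians within 1.5 times of each other in parthenotes and 8-cell IVF. Only 430 (37.3%) did so in parthenotes and late 8-cell IVF, and 426 (37.0%) in late and 8-cell IVF. Of the 842 other abundant loci, 669 were within 1.5 times between parthenotes and 8-cell IVF. Without late 8-cell IVF replicate 1 and parthenote replicate 4 the 3 counts were 381 for parthenotes and late 8-cell IVF, 995 for parthenotes and 8-cell IVF and 381 for late and 8-cell IVF. These counts share libraries and were not compared by a test.

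Within the limit of 1.5 times, the members had no common direction. The highest median fell in parthenotes at 87 members, in late 8-cell IVF at 114 and in 8-cell IVF at 109. The lowest fell in parthenotes at 109, in late 8-cell IVF at 122 and in 8-cell IVF at 79. The middle ratio of highest to lowest median was 1.32, with 16 members at 1.1 or less and 74 above 1.4. The member just inside the limit was MSTRG.113281, with medians of 51.8, 52.9 and 35.3 FPKM in parthenotes, late 8-cell IVF and 8-cell IVF (ratio 1.498), and just outside was MSTRG.24795 at 37.97, 43.9 and 29.3 FPKM (ratio 1.501). At the lower limit, MSTRG.6062 was inside at 24.3, 20.5 and 26.9 FPKM, and MSTRG.44403 was outside at 23.99, 19.996 and 24.8 FPKM. The loci on the 2 sides of each limit were nearly alike, so the count of 310 marks a place on a continuous range.

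Steadiness was relative to the FPKM scale. Over the 16221 loci that reached 1 FPKM in at least 8 libraries, the median log2 difference of group medians was 0.58 for parthenotes minus late 8-cell IVF, 0.02 for parthenotes minus 8-cell IVF and -0.48 for late minus 8-cell IVF. Over the members the same medians were -0.00, -0.04 and -0.04. Small values follow from the rule, which limits these differences at each member. Rescaling each library to a common FPKM sum gave 284 steady loci, of which 232 were among the 310. Median-of-ratios factors gave 300 with 229 shared, and quantile normalization gave 288 with 212 shared, so about as many loci qualified but 68.4% to 74.8% of the 310 were among them. Under those scalings the members' median difference for late minus 8-cell IVF was -0.24, 0.12 and -0.32. The direction of so small a shift thus depended on the scaling. In bulk RNA, fewer cells of a type and less RNA per cell cannot be told apart.

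The members with the highest levels were MSTRG.102012 and MSTRG.102011, the 2 highest loci of the whole table by mean FPKM. MSTRG.102012 ran from 2111 through a median of 10736 to 25729 FPKM in 11 parthenotes, from 6839 through 13563 to 22950 FPKM in 8 late 8-cell IVF libraries and from 5160 through 14361 to 16868 FPKM in 8 8-cell IVF libraries. MSTRG.102011 ran from 1036 through 5711 to 13593 FPKM in parthenotes, from 3563 through 7018 to 11461 FPKM in late 8-cell IVF and from 2732 through 7693 to 9732 FPKM in 8-cell IVF. The groups overlapped widely, and the lowest libraries of both loci were parthenote replicate 4, late replicate 4 and 8-cell IVF replicate 4. The highest were parthenote replicate 1, late replicate 3 and 8-cell IVF replicate 5, again for both loci.

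The 2 loci moved as one. MSTRG.102012 was 1.77 to 2.04 times MSTRG.102011 in the parthenotes, 1.88 to 2.002 times in late 8-cell IVF and 1.66 to 1.93 times in 8-cell IVF, although each varied many-fold between libraries. Together they held from 1.03% to 12.5% of a library's FPKM sum in parthenotes, from 2.87% to 9.37% in late 8-cell IVF and from 2.47% to 8.06% in 8-cell IVF. They set most of the variation in what the members held as a whole. Of the FPKM sum, all 310 members held 12.6% ± 3.48 (SD, n = 11) in parthenotes. They held 12.3% ± 2.51 (SD, n = 8) of it in late embryos, and 13.2% ± 2.12 (SD, n = 8) in 8-cell IVF. Without these 2 loci the shares were 6.897% ± 0.231 (SD, n = 11) in parthenotes, 6.46% ± 0.488 (SD, n = 8) in late embryos and 7.26% ± 0.216 (SD, n = 8) in 8-cell IVF.

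Next by level was MSTRG.39737, assembled as 1 transcript. It ran from 404 through 678 to 941 FPKM in parthenotes, from 597 through 945 to 1496 FPKM in late 8-cell IVF and from 599 through 750 to 841 FPKM in 8-cell IVF. Its groups overlapped, and the late libraries reached higher than any library of the other groups while their lowest was level with the lowest 8-cell IVF library.

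The 2 members with the closest medians differed in how their libraries spread. MSTRG.50775 had medians of 32.41, 32.45 and 32.8 FPKM in parthenotes, late 8-cell IVF and 8-cell IVF, with ranges of 14.6 to 60.2, 14.1 to 55.9 and 19.3 to 75.2 FPKM. MSTRG.70406 had medians of 124, 124 and 123 FPKM, with ranges of 83.1 to 170 FPKM in parthenotes, 34.9 to 189 FPKM in late 8-cell IVF and 104 to 146 FPKM in 8-cell IVF. In both, equal medians stood over libraries that differed more than 3-fold within the late group. The lowest late library was replicate 6 for MSTRG.50775, the shallowest library of all, and replicate 2 for MSTRG.70406.

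The members with the smallest mean spread were MSTRG.91250 and MSTRG.70817. MSTRG.91250 ran from 140 through 197 to 233 FPKM in parthenotes, from 153 through 200.1 to 249 FPKM in late 8-cell IVF and from 148 through 191 to 215 FPKM in 8-cell IVF. MSTRG.70817 ran from 75.3 through 94.9 to 117 FPKM in parthenotes, from 85.7 through 108 to 146 FPKM in late 8-cell IVF and from 75.97 through 99.8 to 112 FPKM in 8-cell IVF. At these loci all 27 libraries lay within 2-fold of each other, in late 8-cell IVF replicate 1 and parthenote replicate 4 as well.

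At the other end were MSTRG.37736 and MSTRG.73796. MSTRG.37736 ran from 21.5 through 66.5 to 184 FPKM in parthenotes, from 0.317 through 65.5 to 145 FPKM in late 8-cell IVF and from 11.7 through 52.3 to 135 FPKM in 8-cell IVF. MSTRG.73796 ran from 29.8 through 101.9 to 209 FPKM in parthenotes, from a listed 0 through 68.2 to 128 FPKM in late 8-cell IVF and from 10.5 through 77.6 to 153 FPKM in 8-cell IVF. The lowest late value of both was that of late 8-cell IVF replicate 1, and without it the SD of log2(FPKM + 1) in the late group was 0.76 in place of 2.16 for MSTRG.37736 and 0.71 in place of 2.26 for MSTRG.73796.

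**Figure D2:**
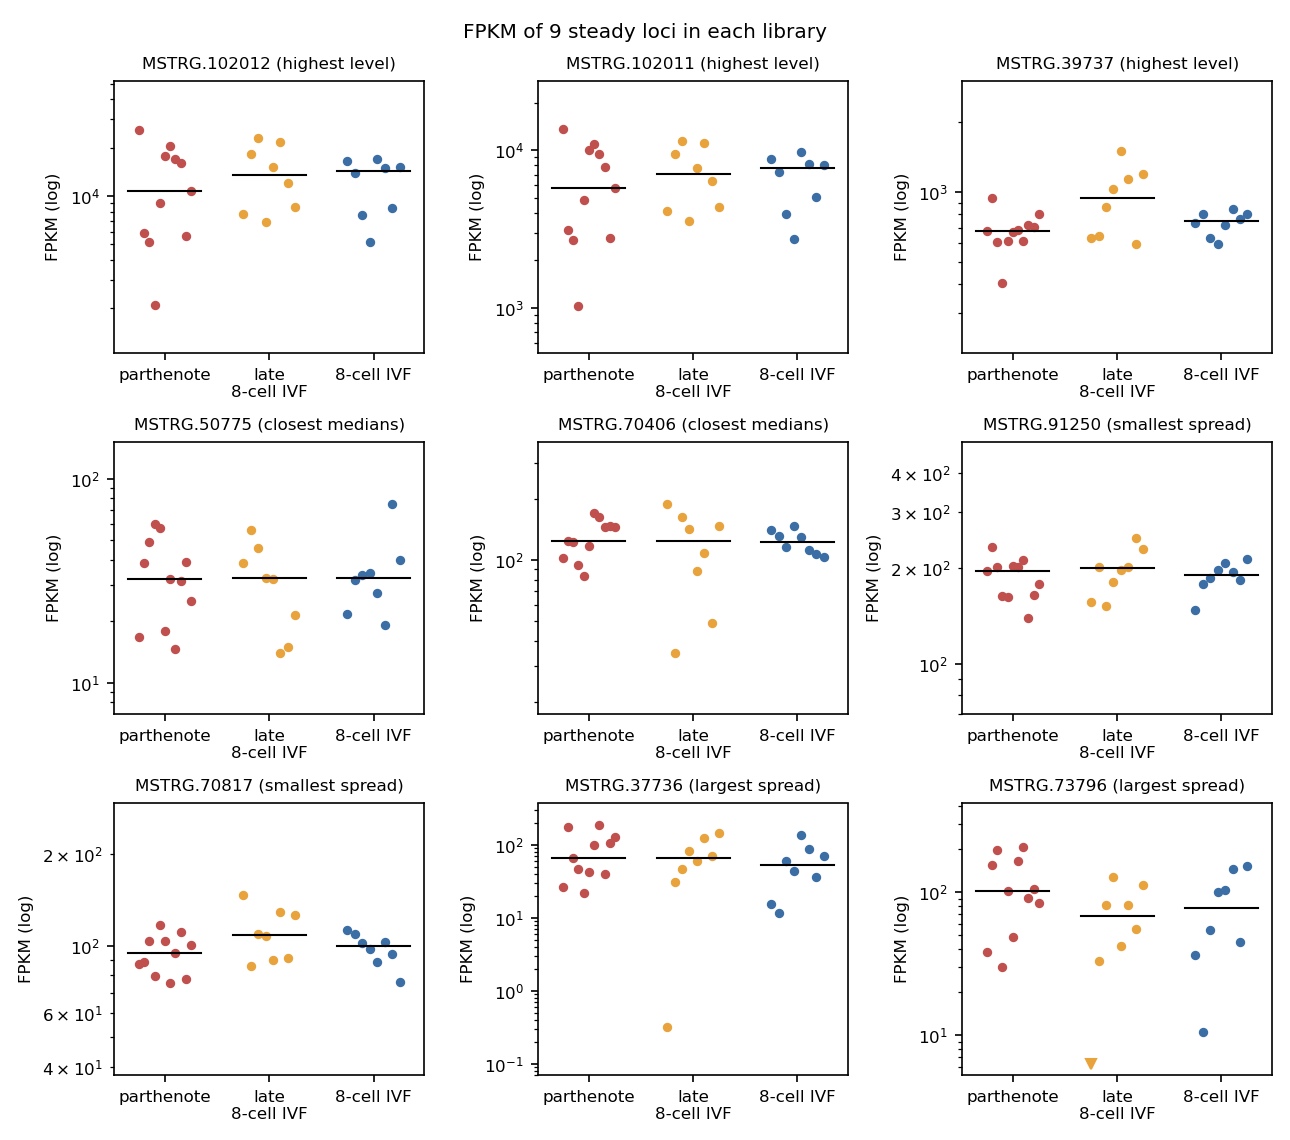
FPKM (log axes) in each library of 9 steady loci named by rule, in parthenotes (11 libraries), late 8-cell IVF (8) and 8-cell IVF (8), with group medians as black lines and a triangle at the lower edge for a library listed at 0. Medians lie within 1.5 times of each other in each panel by the rule. Single libraries of MSTRG.102012 and MSTRG.37736 lie far from their group's median, and all libraries of MSTRG.91250 lie close together.

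Close medians did not mean close libraries. The highest library was 5.11 times the lowest at the middle member, against 11.4 times at the middle other abundant locus. All 27 libraries lay within 3-fold of each other at 39 members (12.6%) and 16 other abundant loci (1.90%), within 5-fold at 154 members (49.7%) and 112 other abundant loci (13.3%), and within 10-fold at 264 members (85.2%) and 385 other abundant loci (45.7%). Without late 8-cell IVF replicate 1 and parthenote replicate 4, 208 members and 180 other abundant loci stayed within 5-fold. The rule itself lowers these ratios in the members, since it removes the part that differs between groups.

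Spread inside a group does not enter the rule directly. The middle SD of log2(FPKM + 1) over libraries was 0.44 in parthenotes, 0.61 in late 8-cell IVF and 0.28 in 8-cell IVF for the members, and 0.49, 0.88 and 0.29 for the other abundant loci. Without late replicate 1 the late values were 0.58 for the members and 0.65 for the other abundant loci. Libraries of parthenotes were within 2-fold of each other at 47 members (15.2%), those of late 8-cell IVF at 23 (7.42%) and those of 8-cell IVF at 201 (64.8%). Such a count can only fall as libraries are added, and there were 11 parthenote libraries against 8 in each IVF group. Without parthenote replicate 4 the parthenote count was 125 (40.3%), and without late replicate 1 the late count was 34. The groups were thus ordered alike in members and in other abundant loci, with late 8-cell IVF the most spread and 8-cell IVF the least. The 8-cell IVF libraries carry their own request number and the narrowest range of depths, and the part of either in the spread was not tested.

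**Figure D3:**
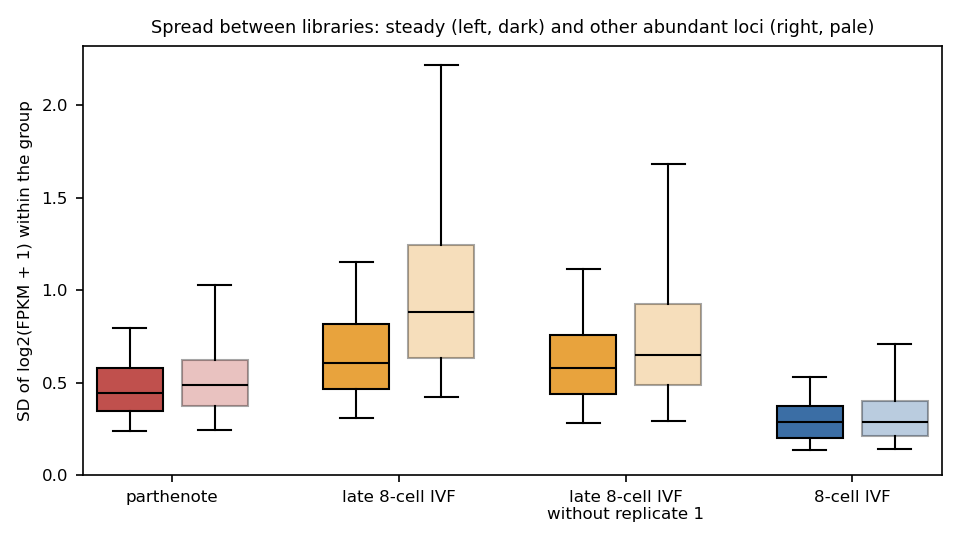
SD of log2(FPKM + 1) between the libraries of a group, for steady loci (dark boxes) and other abundant loci (pale boxes), with medians as lines, quartiles as boxes and the 5th and 95th percentiles as whiskers. The median for steady loci is 0.44 in parthenotes, 0.61 in late 8-cell IVF (0.58 without replicate 1) and 0.28 in 8-cell IVF.

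The libraries were then used one at a time as samples that had no part in the choice. The loci were chosen again from the other 26 libraries, and their values in the left-out library were set against the median of the remaining libraries of its own group. The loci rechosen numbered from 267, without late 8-cell IVF replicate 1, to 322, and between 253 and 305 of them were among the 310. A core of 217 members was chosen whichever library was left out.

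In a left-out parthenote a middle 83.4% of rechosen loci (35.8% to 90.4%) lay within 1.5 times of their own group, in a left-out late library 56.4% (45.9% to 74.7%) and in a left-out 8-cell IVF library 90.5% (80.9% to 93.8%). For other abundant loci those middles were 77.5%, 52.2% and 84.7%. Rechosen loci had the higher percentage in 25 of 27 libraries. It was the lower one in parthenote replicate 6 (84.7%, against 84.8% of other abundant loci) and in late replicate 4 (55.1%, against 55.9%). The lowest parthenote was replicate 4, at 35.8% for rechosen loci and 34.2% for the others. At late replicate 1, which lay with the 8-cell IVF libraries, the percentages were 54.7% and 17.95%, a gap that follows from the rule, since rechosen loci have like medians in late and 8-cell IVF embryos. Without that library the late middles were 57.7% for rechosen loci and 55.9% for the others. Against the other 2 groups, whose medians the rule had already brought close together, a middle 78.4% of rechosen loci lay within 1.5 times in left-out parthenotes, 56.3% in late libraries and 84.1% in 8-cell IVF.

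**Figure D4:**
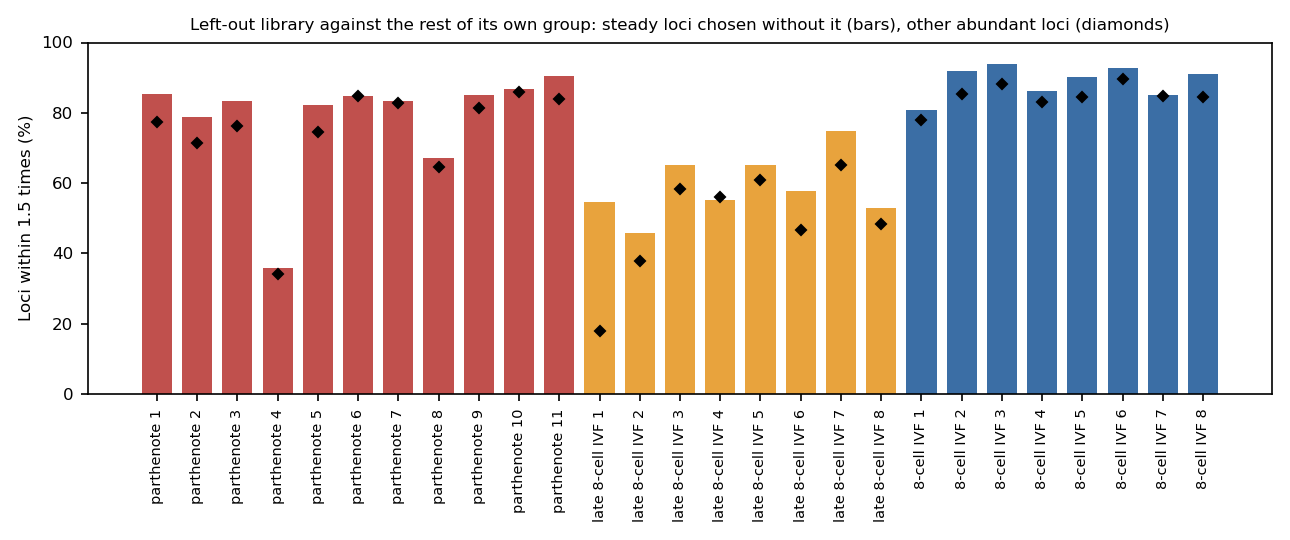
Percent of loci in each left-out library that lay within 1.5 times of the median of the other libraries of its own group, for steady loci chosen without that library (bars) and other abundant loci (diamonds). Bars and diamonds lie close together in most libraries and are low together in parthenote replicate 4 (35.8% and 34.2%), and the wide gap at late replicate 1 follows from the rule.

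In structure the members were like the other abundant loci. Both sets had a middle of 4 transcripts per locus. Members made up 28.8% of the 278 abundant loci with 1 transcript, 27.02% of the 359 with 2 to 4 and 25.8% of the 515 with 5 to 19. The rule excludes loci with 20 or more transcripts, of which 9 met both level limits. At 0 members were the values identical, library by library, with those of a second locus.

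The numbers of the members ran from 224 to 116341. There were 17 pairs of members with consecutive numbers, involving 33 loci. After group means were removed, consecutive members correlated over the 27 libraries with a middle Pearson r of 0.89 (0.0988 to 0.9994), and 11 pairs had r of at least 0.8. All 47895 pairs of members had a middle r of 0.03, with quartiles at -0.20 and 0.26. These are descriptions over libraries that share depth and scaling. Loci of consecutive numbers may hold reads of one another, so the 310 are not 310 independent units.

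A steady total does not show which transcripts make it up. The rule used the total alone, and the division of each total between its transcripts was examined. Total and division are not independent. Where 1 transcript changes and the others stay level, the total changes too, and such a locus is less likely to be a member. Rates and sizes of change in members, set beside those of all loci, can therefore be shaped by the rule. For each locus, the leading transcript is the one with the highest mean FPKM over the 27 libraries, and the measure tested is log2 of its FPKM plus 1 over the summed FPKM of the other transcripts plus 1. Both parts had to reach 1 FPKM in at least 8 libraries. Of the 310 members, 80 had 1 transcript, 13 others were not tested, and 217 were tested among 6943 loci in all with limma and Benjamini-Hochberg adjustment over those loci.

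Between parthenotes and late 8-cell IVF, 78 of 217 members were called for a change in the balance of their transcripts (35.9%, limma, adjusted p under 0.05). Of all loci tested, 55.7% were called. The leading transcript had the larger part in parthenotes at 56 members, with 25.4% of all loci called in that direction, and the smaller part at 22, with 30.4%. Between late and 8-cell IVF, 80 of 217 members were called (36.9%), with 53.7% of all loci called. The leading transcript had the smaller part in late embryos at 58, with 24.7% of all loci called in that direction, and the larger at 22, with 29.0%. Of 619 other abundant loci tested, 322 (52.0%) were called in each of these comparisons. Both comparisons use the same late libraries, and the leading transcript was picked over 27 libraries of which 8 were late.

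Between parthenotes and 8-cell IVF, 1 member changed in limma, with 0.85% of all loci called, and its leading transcript had the smaller part in parthenotes, a direction in which 0.533% of all loci were called. In the other direction 0 members and 0.317% of all loci were called. Before adjustment, 29 members (13.4%) had p under 0.05 in limma, against 11.2% of all loci tested. The count was 6, with 3.30% of loci called, when those 2 groups were fitted alone. The fit of all groups together takes a common spread per locus that includes the late libraries, so the count of 1 depends on that choice.

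Over all 217 members tested, called or not, the middle size of change was 0.05 on the log2 scale for parthenotes against late 8-cell IVF, 0.02 for parthenotes against 8-cell IVF and 0.07 for late against 8-cell IVF, against 0.18, 0.05 and 0.19 over all loci tested. Over the called members alone it was 0.30 for the 78 of parthenotes against late 8-cell IVF, against 0.35 over all called loci. It was 0.29 for the 80 of late against 8-cell IVF, against 0.38. The smallest called changes in those comparisons were 0.0134 and 0.0130, so a call need not mean a sizeable change. At some members the ratio hardly varied between libraries, with an SE of 0.0023 at MSTRG.46531 for parthenotes against late embryos. With a fold of at least 2 in addition to the threshold, 11 members passed for parthenotes against late 8-cell IVF (5.07%, with 4.7% of all loci), 1 for parthenotes against 8-cell IVF (0.461%, with 0.0576% of all loci) and 15 for late against 8-cell IVF (6.91%, with 5.2% of all loci). In the comparisons with late embryos these shares are near those of all loci, and between parthenotes and 8-cell IVF the share is that of 1 locus. Of 619 other abundant loci tested, 3.39% passed for parthenotes against late 8-cell IVF, 0% for parthenotes against 8-cell IVF and 3.07% for late against 8-cell IVF.

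A clear exchange of the highest transcript, in which each group's highest transcript had a median at least 1.5 times that of the other group's, was seen at 8 members between parthenotes and late 8-cell IVF (3.69%) and at 8 between late and 8-cell IVF (3.69%). It was seen at 0 members between parthenotes and 8-cell IVF. Over all loci tested such exchanges were 1.61%, 1.51% and 0.072% in parthenotes against late, late against 8-cell IVF and parthenotes against 8-cell IVF. Over 619 other abundant loci they were 1.94%, 1.94% and 0%, in the same order. No test compared the members with the rest. The exchanges were counted with all libraries only, late replicate 1 among them.

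MSTRG.73796, one of the members of largest spread, was such a case. Its leading transcript, MSTRG.73796.1, held 41.6% ± 9.22 (SD, n = 11) of the locus total in parthenotes, 3.63% ± 2.56 (SD, n = 7) in late embryos and 31.5% ± 6.45 (SD, n = 8) in 8-cell IVF. The late range of 0.86% to 8.20% did not overlap the parthenote range of 28.5% to 60.2%. Late replicate 1, listed at 0 for the whole locus, has no share. In the limma fit it was kept, and the pseudocount sets its log2 ratio to 0.

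The FPKM of its transcripts showed the exchange. MSTRG.73796.1 ran from 11.6 through 47.03 to 88.5 FPKM in parthenotes, from 0 through 1.42 to 9.23 FPKM in late 8-cell IVF and from 3.58 through 23.6 to 55.5 FPKM in 8-cell IVF. MSTRG.73796.3 ran from 2.44 through 6.25 to 31.4 FPKM in parthenotes, from 0 through 62.1 to 113 FPKM in late 8-cell IVF and from 0.865 through 6.39 to 16.5 FPKM in 8-cell IVF. In the late libraries other than replicate 1 the first transcript was low and MSTRG.73796.3 high, beneath totals with medians of 101.9, 68.2 and 77.6 FPKM in parthenotes, late and 8-cell IVF. Those totals had a ratio of highest to lowest median of 1.495, near the limit of 1.5. MSTRG.73796 was outside the core of 217 members chosen whichever library was left out, whose ratios reached at most 1.466. The log2 ratio of leading to other transcripts was higher by 3.29 (SE 0.44) in parthenotes than in late embryos (limma, adjusted p = 3.5e-06, and at most 0.00035 over 33 alternatives).

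MSTRG.68927 had 2 transcripts and a total of 35.9, 32.01 and 42.5 FPKM by median in parthenotes, late 8-cell IVF and 8-cell IVF. Its second transcript ran from 0.099 through 2.01 to 4.97 FPKM in parthenotes, from 0.471 through 7.55 to 12.6 FPKM in late embryos and from 0 through 0.242 to 0.929 FPKM in 8-cell IVF. The leading transcript thus held 94.3% ± 2.79 (SD, n = 11) of the total in parthenotes, 78.6% ± 9.41 (SD, n = 8) in late embryos and 99.2% ± 0.775 (SD, n = 8) in 8-cell IVF. Late replicate 1, at 98.5%, lay with the 8-cell IVF libraries, and without it the late share was 75.8% ± 5.30 (SD, n = 7).

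The log2 ratio of MSTRG.68927 was lower by 3.14 in late than in 8-cell IVF embryos (log2 difference -3.14, SE 0.35, limma, adjusted p = 5.5e-07, and at most 6.4e-05 over 33 alternatives). It was the 1 member called between parthenotes and 8-cell IVF, with a log2 difference of -1.43 (SE 0.33, limma, adjusted p = 0.033). That call was near the threshold and ended in 15 of 33 alternatives, over which the adjusted p ran from 0.00079 to 0.105 (limma). It was lost without parthenote replicate 2, 4, 6, 8 or 10 and without 8-cell IVF replicate 1, 2, 3, 4, 6 or 7, with log2 differences from -1.44 to -1.36 in those fits. The size of both differences depended on the pseudocount, since the second transcript's median in 8-cell IVF, 0.242 FPKM, is under the pseudocount of 1. With 0.1 in its place the log2 difference was -4.87 for late and -2.78 for parthenotes against 8-cell IVF, and with 5 it was -1.78 and -0.65.

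MSTRG.19775, with 11 transcripts, had the lowest change called for parthenotes against late embryos. Its leading transcript held from 9.14% through 23.3% to 30.8% of the total in parthenotes, from 20.4% through 35.8% to 49.6% in late 8-cell IVF and from 14.7% through 22.5% to 36.9% in 8-cell IVF. The ranges overlapped. The log2 difference of parthenotes minus late embryos was -0.90 (SE 0.24, limma, adjusted p = 0.0026, and at most 0.0089 over 34 alternatives), and -0.59 with a pseudocount of 5.

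MSTRG.35151, with 7 transcripts, had the highest change called for late against 8-cell IVF. Its leading transcript held from 9.69% through 15.4% to 57.9% in parthenotes, from 4.91% through 17.2% to 46.4% in late 8-cell IVF and from 7.66% through 8.90% to 11.6% in 8-cell IVF. The highest values were those of parthenote replicate 4 and late replicate 4, and the 8-cell IVF libraries lay within a narrow band. The log2 difference of late minus 8-cell IVF was 1.16 (SE 0.43, limma, adjusted p = 0.025, from 0.0031 to 0.064 over 34 alternatives). It was lost without late replicate 4 (log2 difference 0.89, adjusted p = 0.064, limma) and without late replicate 8 (1.02, adjusted p = 0.053, limma). Parthenotes minus 8-cell IVF gave a like difference of 1.15, not called (SE 0.40, limma, adjusted p = 0.195), and parthenotes minus late embryos -0.0077. Parthenotes and late embryos share request number 19058, so stage and request number cannot be told apart at this locus. Transcripts of a locus share reads, so the division of FPKM between them is an estimate of the assembler and these shares are uncertain. Some had the same lowest, median and highest FPKM in every group: MSTRG.19775.3 and MSTRG.19775.4, MSTRG.35151.4 and MSTRG.35151.5, and MSTRG.73796.4 and MSTRG.73796.5. In parthenotes MSTRG.19775.3 and MSTRG.19775.4 each had a median of 4.70 FPKM, against 5.07 FPKM for the leading MSTRG.19775.11. Which transcript leads, and its share, thus depend on how the FPKM was divided.

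**Figure D5:**
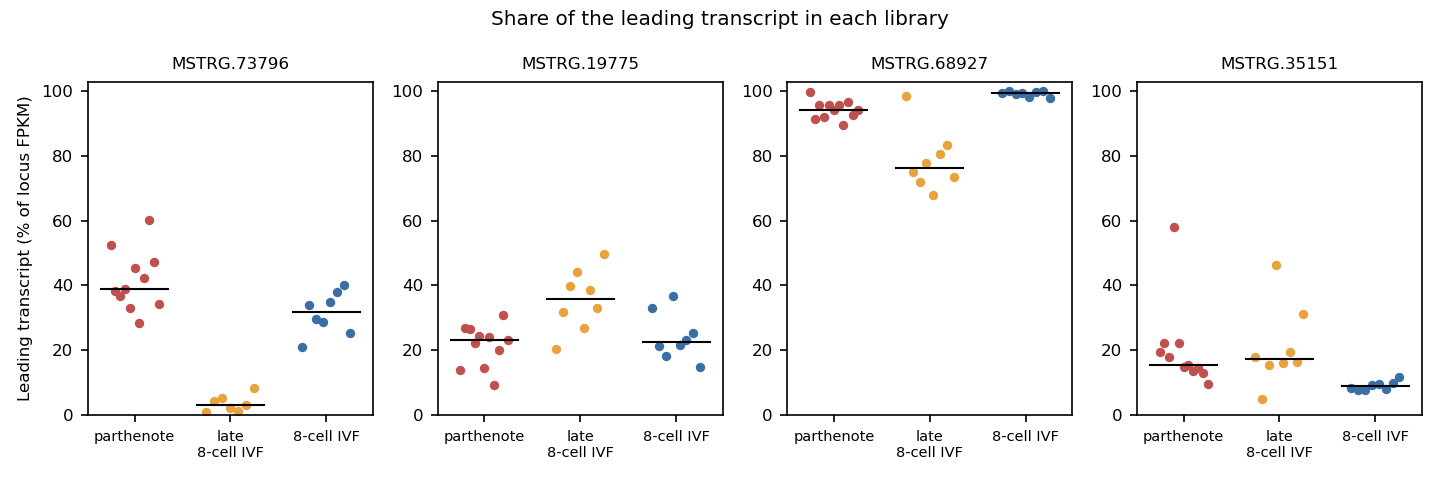
Share of the locus FPKM held by the leading transcript in each library (points) with group medians (lines), for the 4 steady loci named by the transcript comparison, in parthenotes, late 8-cell IVF and 8-cell IVF. In MSTRG.73796 the 7 late libraries with a value lie at 0.86% to 8.20%, below each library of the other groups.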

How the data were processed

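FPKM values per assembled transcript were deposited by the authors for 27 libraries. The submitters' processing notes name FastQC 0.10.1, TopHat2 2.1.0 and StringTie. For the genome build, the annotation and any filter, the sources used here give nothing. Columns were matched to samples by the identifier in the labels, and 0 columns of values were left unused. The members, the lists and the rule for naming loci were chosen with earlier results of these data known. Gene lists and cell type markers need symbols and were not applied.

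FPKM was summed per locus. Loci were named as the 3 highest, the 2 closest in medians, the 2 of smallest and 2 of largest spread, those beside each limit, and the highest and lowest change among members called per comparison. The transcript balance, log2 of the leading plus 1 over the others plus 1, was fitted with limma 3.58.1 (R 4.3.3) for all groups together, with the mean locus level as trend and robust settings, two-sided, threshold 0.05. Of 7177 loci past the filter, 234 whose ratio spanned under 0.01 were left out, a choice made after the data were seen. The fit was tested on simulated data in which deviations from group means were shuffled over all libraries. Every group then had the same spread, so that test could not check the effect of unequal spread between groups. Other steps used Python 3.11.15 with numpy 2.4.6 and pandas 2.3.3. FPKM hides read numbers, so no count test was run and no interval for counting error is given. Relative depths fitted 95.7% of 351 library pairs within 0.03 log2. Alternatives covered limits, scalings, pseudocounts, filters, the replicate block and each library left out.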

Additional observations from a re-analysis of the deposited data

Results flagged for a closer look

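In groups of 8 libraries, 36 sets of values were searched for a library far from its group, where chance flags about 1 in 20, and 2 were found. Late 8-cell IVF replicate 1 lay at -0.0835 on the scale from the 8-cell IVF median (0) to the late median (1) of the other abundant loci, far below the other late libraries. At the steady locus MSTRG.50775, 8-cell IVF replicate 7 had 75.2 FPKM, against a median of 32.8 FPKM in its group. The group of 11 parthenotes was not searched.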

How the results depend on the processing

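The count of 310 steady loci was 105 at the tighter of the 2 other limits tried on the ratio and 578 at the wider one of 2 times, 552 at a minimum of 10 FPKM and 113 at 50 FPKM, and 137 with the leading transcript in place of the sum. It was 323 with group means (249 shared) and 267 to 322 with each library left out. It was 275 (253 shared) without both late 8-cell IVF replicate 1 and parthenote replicate 4, a setting chosen after the data were seen. Members called in transcript balance ran from 72 (53.2% of all loci) to 95 (62.0%) for parthenotes against late 8-cell IVF and from 75 (51.4%) to 100 (60.7%) for late against 8-cell IVF over the libraries left out, both highest without late replicate 1. A fold of at least 2, added after the data were seen, gave 11 and 15. For parthenotes against 8-cell IVF the count of 1 was 0 to 2 over the libraries left out and 6 with the 2 groups alone. In limma it was 0 with no filter (28 members at an unadjusted p under 0.05, with 10.1% of all loci), with a filter of 5 FPKM (24, with 10.7%), on the arcsine scale (18, with 9.37%) and with the replicate block (29, with 11.2%). With the replicate block the other counts were 70 (49.7% of all loci) and 74 (51.4%). Steady loci whose parthenote libraries lay within 2-fold numbered 47, and 125 without parthenote replicate 4. Replicate numbers did not pair libraries: r was over 0.1 in 6 of 24 same-number pairs, and a library correlated best with its own number in 7 of 48 comparisons. The cause of these changes was not tested. Depth in reads is unknown and limits low transcripts most.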
